A study of Homo sapiens with 30 samples.

Results

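RCC4 cells, a renal carcinoma line, were measured after 1 h and 4 h of hypoxia on 4 arrays, 1 for each VHL genotype and time, and these were set against the 2 untreated arrays of replicate 2, 1 for each genotype. These 6 of the 30 arrays of the series were chosen by their labelled cell line, time and replicate, because the replicate 2 arrays at 0 h lie on the same intensity scale as the arrays at 1 h and 4 h. The series follows hypoxic expression in cell lines that differ in VHL or p53 genotype, and 20 of its arrays are of RCC4 cells. The VHL-null groups are RCC4 cells without functional VHL, and the VHL-restored groups are RCC4 cells into which the wild-type gene was put back. All were grown as monolayers, and hypoxia was below 0.01% oxygen in an anoxic incubator. The labels name no clone and no promoter for the restored gene, and the 1 h and 4 h groups have no replicate array. In the tests of hypoxia each genotype therefore served as the replicate of the other. With 1 h and 4 h in a single contrast, the times served as replicates as well. Such a test is of the mean change over both genotypes, and a change found mostly in either genotype can also pass.

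VHL is the part of a ubiquitin ligase that recognises the alpha subunits of the hypoxia-inducible factors (HIF) after oxygen-dependent hydroxylation and marks them for destruction. Without oxygen the subunits escape, pair with ARNT and switch on genes for glycolysis, angiogenesis and adaptation to low oxygen. In cells without VHL, as in many clear cell renal carcinomas, HIF stays active in air. Near-anoxia also acts on cells in ways that need no HIF, through the unfolded protein response, the ATF4 response and p53.

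Promoters of 4 genes with large rises in hypoxia are shown first, as the stretches in which the DNA letters bound by HIF and by stress factors could be looked for. Each is the 250 bases before the first listed start of the gene in RefSeq, build GRCh38.p14, written 5′ to 3′ on the strand of the gene. The letters searched on both strands were ACGTG and GCGTG, the core of the hypoxia response element, TGACGTCA, the cyclic AMP response element, and TGANTCA, the AP-1 site. Capitals mark the matches, and CACGTG holds ACGTG on both strands.
ATF3, a stress-induced transcription factor, at chr1:212565157-212565406, plus strand: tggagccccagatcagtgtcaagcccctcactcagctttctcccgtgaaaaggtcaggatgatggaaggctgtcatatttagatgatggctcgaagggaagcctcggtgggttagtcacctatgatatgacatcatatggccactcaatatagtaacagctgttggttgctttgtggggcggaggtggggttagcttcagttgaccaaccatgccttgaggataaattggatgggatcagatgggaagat
PPP1R3C, a subunit that brings protein phosphatase 1 to glycogen, at chr10:91633072-91633321, minus strand: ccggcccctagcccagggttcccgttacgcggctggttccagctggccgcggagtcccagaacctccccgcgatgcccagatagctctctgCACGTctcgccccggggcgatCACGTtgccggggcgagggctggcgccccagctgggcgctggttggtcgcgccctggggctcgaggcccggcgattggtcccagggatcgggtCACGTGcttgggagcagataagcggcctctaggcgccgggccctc
TNFAIP3, the ubiquitin-editing NF-kB inhibitor A20, at chr6:137867009-137867258, plus strand: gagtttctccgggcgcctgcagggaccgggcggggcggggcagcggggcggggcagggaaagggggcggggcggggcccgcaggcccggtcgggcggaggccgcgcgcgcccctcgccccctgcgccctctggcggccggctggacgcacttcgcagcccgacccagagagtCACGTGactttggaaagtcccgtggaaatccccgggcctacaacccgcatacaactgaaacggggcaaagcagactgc
CDKN1A, the cell cycle inhibitor p21, at chr6:36678464-36678713, plus strand: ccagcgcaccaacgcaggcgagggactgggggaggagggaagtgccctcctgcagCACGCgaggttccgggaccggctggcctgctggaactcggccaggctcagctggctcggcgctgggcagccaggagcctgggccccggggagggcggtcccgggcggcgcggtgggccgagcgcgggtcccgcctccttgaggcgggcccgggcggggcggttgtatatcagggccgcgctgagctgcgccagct
The PPP1R3C promoter held 4 matches to ACGTG over both strands, the TNFAIP3 promoter held 2, from a single CACGTG, and the CDKN1A promoter held 1 match to GCGTG. The ATF3 promoter held none of the 4 motifs, nor did those of the stress cytokine gene GDF15 and the DNA repair gene DDB2. Either ACGTG or GCGTG thus stood in 3 of the 6 promoters searched, against 55.6% of 6159 promoters of tested genes and 43.2% of all 35116 promoters in the table, so the share in these 6 was near that of other genes. TGACGTCA stood in 1.65% and TGANTCA in 6.57% of all promoters. A match is a stretch of letters and not a binding site.

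The 6 arrays differed in ways that moved with hypoxia. Entries listed as null made up 18.4% of the probe sets on the VHL-null array at 0 h and 30.1% on the VHL-restored array at 0 h, against 34.4% to 35.3% on the 4 hypoxia arrays. The VHL-null 0 h array thus stood apart with the fewest nulls. The median gene, on the log2 scale, was 8.05 and 7.89 on the 0 h arrays and 7.76 to 7.81 on the hypoxia arrays, and each array was centred on that median. The part of these differences in the results was not tested. Across 7614 genes, the Pearson correlation of the VHL-restored 1 h array was 0.988 with the 18 h array of replicate 2 and 0.954 with the 0 h array, and for VHL-null cells the values were 0.983 and 0.970. The 1 h arrays thus lay nearer to the 18 h arrays than to the untreated arrays. The untreated arrays also lay nearer to the 18 h arrays than to the 1 h arrays, at 0.985 in VHL-null and 0.968 in VHL-restored cells. This likeness therefore does not order the times. Several genes high at 1 h were not high on the arrays labelled 2 h and 6 h, which are of another array set with a lower intensity scale. Time and array set cannot be told apart here. Whether the labelled times hold was not tested, and each value given here for 1 h or 4 h is that of the arrays with this label. The VHL transcript was dim and untested: VHL-null arrays read 109, 53 and 42 at 0, 1 and 4 h, and VHL-restored arrays read 40, 8 and null. The location of its probes is not given in the sources used here, and the genotype labels could not be checked by it. Of 8 renal epithelial markers on the array, 5 (PAX8, MME, SLC22A6, KRT8 and KRT18) were above the array median on all 6 arrays, while AQP1 was null on all arrays but the VHL-restored one at 0 h, where it read 8, and LRP2 read 8 to 55. The same tally was 5 of 8 for endothelial, 4 of 6 for lung epithelial, 2 of 8 for fibroblast and 1 of 8 for colon epithelial markers, and 1 of 7 for leukocyte and 1 of 3 for red cell and platelet markers, so this tally does not set the renal list apart. The summed intensity at 0 h and in hypoxia was 3605 to 4371 and 3093 to 3897 for the renal list, 2091 to 2137 and 1761 to 1923 for the endothelial list, and 829 to 921 and 705 to 831 for the leukocyte list. CDX1 of the colon list, CD3D of the leukocyte list, TEK of the endothelial list and PF4 of the platelet list were null on all 6 arrays.

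Expression differed broadly between the arrays labelled 1 h and 4 h and the untreated arrays. The largest rises were in stress and growth arrest genes (ATF3, CDKN1A, GDF15, DDB2), in the NF-kB inhibitor TNFAIP3 and in the HIF targets PPP1R3C, HILPDA and TGFA, and the largest falls were in the mitotic kinase gene PLK1, the claudin gene CLDN2 and the autophagy gene VMP1. With the 1 h and 4 h arrays in a single contrast, 967 of 7614 tested genes passed limma at an adjusted p under 0.05, which is 12.7%. Of these, 752 were higher (9.88% of the tested genes) and 215 were lower (2.82%). After centring, all 967 moved the same way on all 4 hypoxia arrays. The fit favours genes that do so, and this is no separate support. The balance of directions rested on the scaling, with 164 higher and 1322 lower without centring and 264 and 234 with quantile normalization. Without centring the median change of all tested genes was -0.12 on the log2 scale, against 0.07 with it. Called under all 4 scalings were 146 higher and 144 lower genes, among them 19 of the 20 largest changes. The count also rested on single arrays. It was 457 without the VHL-null 0 h array, 60 without the VHL-restored 0 h array, 488 without the VHL-null 4 h array, and 49 and 29 without the VHL-restored 1 h and 4 h arrays.

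ATF3 rose the most, from intensities of 292 and 190 at 0 h on the VHL-null and VHL-restored arrays to 1223 and 846 at 1 h and 1347 and 1116 at 4 h. All 4 hypoxia arrays lay far above both untreated arrays in this gene, which was named for the size of its rise. The share of all tested genes without such overlap was not counted. The log2 change was 2.36 ± 0.11 (SE, 6 arrays; limma, adjusted p = 0.00115). TNFAIP3 had intensities of 390, 1194 and 1168 at 0, 1 and 4 h in VHL-null cells and of 327, 1261 and 1419 in VHL-restored cells, a log2 rise of 1.96 ± 0.09 (limma, adjusted p = 0.00115). CDKN1A had intensities of 256, 911 and 956 in VHL-null cells and of 212, 614 and 731 in VHL-restored cells, a log2 rise of 1.89 ± 0.11 (limma, adjusted p = 0.00239). In these genes the rise was near its full size at 1 h. TSC22D3, a leucine zipper protein induced by glucocorticoids, had intensities of 192, 421 and 480 in VHL-null cells and of 113, 288 and 295 in VHL-restored cells, a log2 rise of 1.40 ± 0.06 (limma, adjusted p = 0.00115). It has 2 probe sets, and with their mean in place of the brighter one the log2 rise was 0.66. EDN2, a vasoconstrictor peptide of the endothelin family, went from 239 to 466 and 554 and from 318 to 704 and 795 (log2 rise 1.31 ± 0.08, limma, adjusted p = 0.00364). These 5 genes and DDB2 kept their call with each of the 6 arrays left out in turn. So did IER3, HERPUD1, BBC3, ICAM1 and SMAD7 among the 79 called genes named by rule, 11 in all. Of the 79, 49 were still called without the VHL-null 0 h array, 18 without the VHL-restored 0 h array, 65 and 57 without the VHL-null 1 h and 4 h arrays, and 23 and 14 without the VHL-restored 1 h and 4 h arrays.

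**Figure D1:**
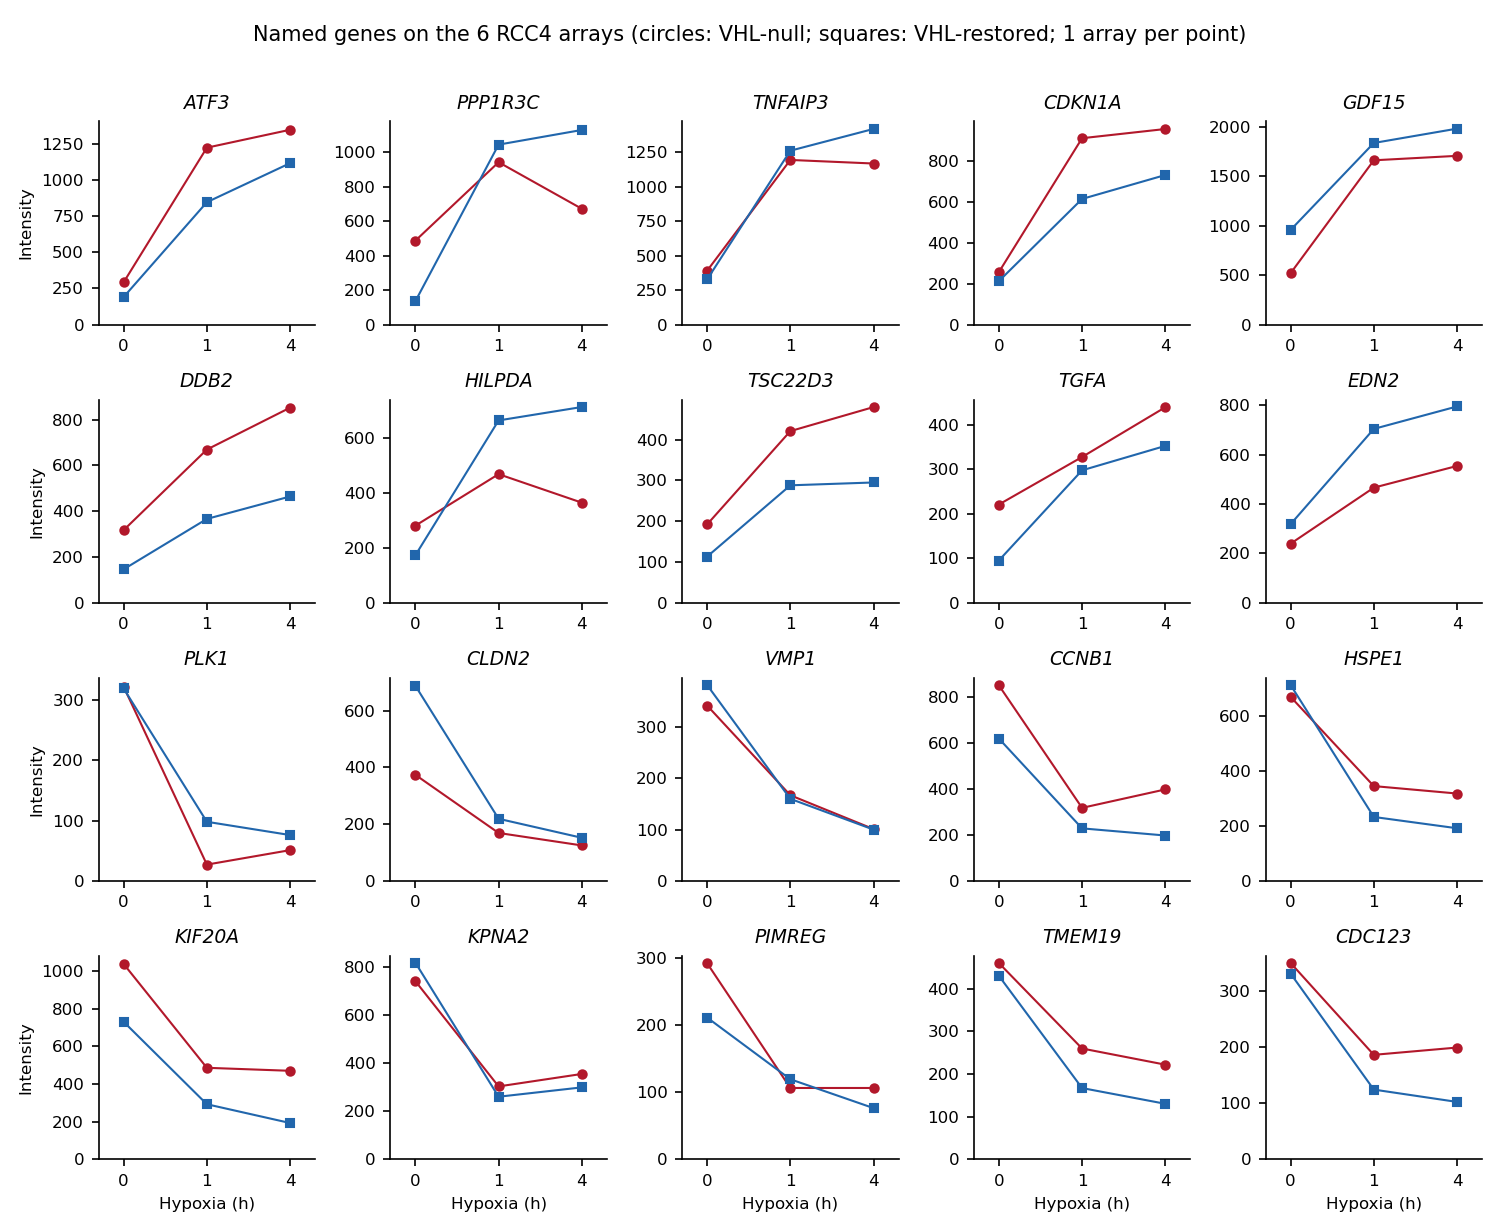
Intensity (linear) of the 20 genes with the largest called rises and falls at 0, 1 and 4 h of hypoxia; each point is 1 array, circles VHL-null and squares VHL-restored. The groups do not overlap within a genotype for any gene, which follows from the rule that named these genes. The step from 0 h to 1 h is larger than that from 1 h to 4 h for most, as for ATF3 (292, 1223 and 1347 in VHL-null cells).

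HIF targets outside glycolysis rose in hypoxia, with larger array medians in VHL-restored than in VHL-null cells. Of 36 genes on the list, 22 were tested, and 12 of these rose and none fell, against 9.88% of all tested genes called higher. This list and those below were chosen with earlier results of these data known. A share above that of all tested genes is therefore not independent support for any of them. The median change over the 22 was 0.83 on the log2 scale, against 0.07 for all tested genes. By array it was 0.35 and 0.34 at 1 h and 4 h in VHL-null cells and 1.17 and 1.12 in VHL-restored cells. The number that rose was 4 with quantile normalization and 8 without centring. It was 1 without the VHL-restored 0 h array and 0 without either VHL-restored hypoxia array, and the medians were then 0.36 to 0.73. TGFA, a ligand of the EGF receptor, had intensities of 221, 328 and 440 in VHL-null cells and of 95, 298 and 353 in VHL-restored cells (log2 rise 1.37 ± 0.19, limma, adjusted p = 0.0183). HILPDA, a protein of lipid droplets, had 281, 469 and 365 in VHL-null cells and 173, 665 and 714 in VHL-restored cells (log2 rise 1.41 ± 0.27, limma, adjusted p = 0.0308). PPP1R3C had 486, 941 and 671 in VHL-null cells and 135, 1043 and 1128 in VHL-restored cells (log2 rise 1.97 ± 0.43, limma, adjusted p = 0.0397). In each of these 3 genes the VHL-restored cells started lower, and in HILPDA and PPP1R3C they ended higher. STC2, a secreted glycoprotein, rose by 1.04 ± 0.15, and the collagen hydroxylases P4HA1 and PLOD2 rose by 0.65 ± 0.10 and 0.46 ± 0.08 on the log2 scale (limma, adjusted p = 0.0198, 0.0208 and 0.0238). These 6 calls ended when a VHL-restored hypoxia array was left out, those of all but STC2 also without the VHL-restored 0 h array, and that of PPP1R3C also without the VHL-null 1 h array. Without the VHL-restored 0 h array the log2 change was 0.95 for PPP1R3C, 0.80 for HILPDA and 0.68 for STC2, and without the VHL-null 0 h array that of PPP1R3C was 2.99.

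The difference between the genotypes was itself tested, as the change in VHL-null cells minus the change in VHL-restored cells, and 4 genes passed, which is 0.0525% of those tested. All 4 changed less in VHL-null cells. ADM, which encodes the vasodilator adrenomedullin, had intensities of 524, 669 and 626 at 0, 1 and 4 h in VHL-null cells and of 116, 852 and 887 in VHL-restored cells, a difference of -2.31 ± 0.13 (limma interaction, log2, adjusted p = 0.0194). ENO2, the neuronal enolase of glycolysis, had 942, 989 and 988 in VHL-null cells and 259, 1293 and 1309 in VHL-restored cells (difference -2.06 ± 0.10, limma, adjusted p = 0.0194). The VHL-null cells were already high for both genes in air. BNIP3, a mitophagy receptor, had 506, 443 and 412 against 120, 516 and 562 (difference -2.13 ± 0.14, limma, adjusted p = 0.0261). NRN1, a neurite growth factor, had 269, 227 and 203 against 35, 235 and 224 (difference -2.44 ± 0.15, limma, adjusted p = 0.0206). For all 4 genes the VHL-restored array at 0 h was the lowest of the 6 and the 2 VHL-restored hypoxia arrays were above their untreated array by several-fold. The differences rest on 1 untreated array for each genotype and 2 residual degrees of freedom. In this fit the 1 h and 4 h arrays of a genotype served as replicates of each other. The residual spread of a gene is thus only how far those arrays differ, and it holds no spread of the untreated arrays. None of the 4 was called without the VHL-restored 1 h array (adjusted p = 0.291 for each) or without the VHL-restored 4 h array (0.262 to 0.275), while 199 and 160 genes were called without the VHL-null 1 h and 4 h arrays. No gene passed in the other direction. Among the nearest was RASSF4, a protein of the RAS-association family, with intensities of 382, 563 and 609 in VHL-null cells and of 177, 147 and 151 in VHL-restored cells, which did not pass (difference 0.96 ± 0.11, limma, adjusted p = 0.105).

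**Figure D2:**
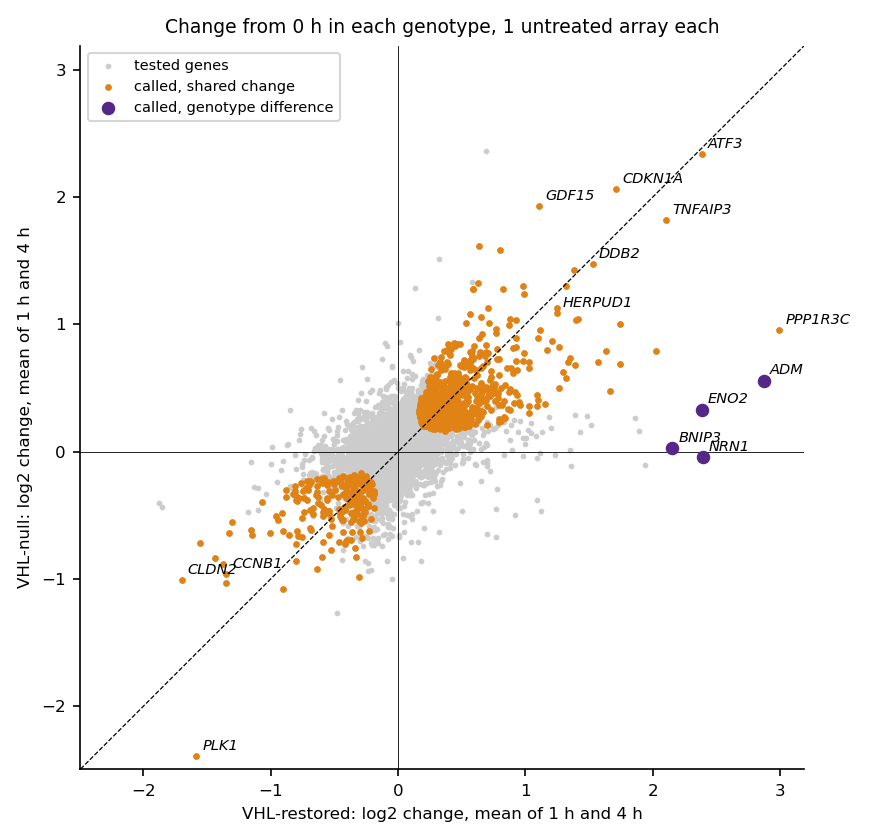
Log2 change from 0 h, as the mean of the 1 h and 4 h arrays, in VHL-restored cells (x axis) and VHL-null cells (y axis) for the 7614 tested genes; the dashed line marks equal change. ADM, ENO2, BNIP3 and NRN1, called for the genotype difference, lie far to the right near the x axis, while ATF3, CDKN1A and DDB2 lie near the dashed line.

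Other HIF targets were measured without passing the test of the difference. NDRG1, a stress-responsive protein, had intensities of 1315, 1662 and 1902 in VHL-null cells and of 581, 1781 and 1854 in VHL-restored cells, and rose by 1.22 ± 0.22 on the log2 scale (limma, adjusted p = 0.0283), a call that ended without either VHL-restored hypoxia array. VEGFA, the angiogenic growth factor, and EGLN3, a HIF prolyl hydroxylase, were not tested, because their mean over all 30 arrays of the series was below the filter. VEGFA intensities were 163, 310 and 257 in VHL-null cells and null, 55 and 106 in VHL-restored cells. EGLN3 intensities were 242, 347 and 334 in VHL-null cells, and all 3 VHL-restored arrays listed it as null. The VHL-null arrays were the higher ones at every time for both genes. Among the HIF subunits and regulators, 2 of 9 tested genes rose, against 9.88% of all tested genes called higher, and the median over the 9 was 0.18. The ARNT subunit rose by 0.25 ± 0.05 and the HIF-interacting lectin OS9 by 0.48 ± 0.06 on the log2 scale (limma, adjusted p = 0.0346 and 0.0133). Neither call held without the VHL-restored 0 h array or without either VHL-restored hypoxia array, and the ARNT call ended with any of the 6 arrays left out. ARNT read 439 at each time in VHL-null cells and 424, 464 and 459 in VHL-restored cells, so that on the VHL-null arrays its rise appears only after centring. Its log2 change was 0.06 without centring and 0.16 with quantile normalization, and it did not pass in either, while OS9 passed in both. Against the 0 h arrays of replicate 1 the changes were -0.20 for ARNT and -0.12 for OS9. HIF1A, which encodes the HIF-1 alpha subunit, had 667, 442 and 592 in VHL-null cells and 1504, 1297 and 1372 in VHL-restored cells (log2 change -0.08 ± 0.10, limma, adjusted p = 0.615).

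Genes of glycolysis and glucose use changed little in size, with 7 of 18 tested members called higher and none lower, against 9.88% of all tested genes called higher. The median was 0.36 on the log2 scale, and by array 0.25 and 0.21 in VHL-null cells and 0.44 and 0.44 in VHL-restored cells. The calls rested on the scaling, since none of the 18 was called higher with quantile normalization or without centring and 1 was then lower without centring. They also rested on single arrays, with 3 without the VHL-null 4 h array and none without the VHL-restored 0 h array or either VHL-restored hypoxia array. LDHA, which turns pyruvate into lactate, had intensities of 2616, 2617 and 2836 in VHL-null cells and of 1895, 2368 and 2315 in VHL-restored cells (log2 change 0.37 ± 0.06, limma, adjusted p = 0.0214). PGK1, an enzyme of lower glycolysis, had 1940, 1921 and 1950 in VHL-null cells and 1669, 2076 and 2118 in VHL-restored cells (log2 change 0.36 ± 0.06, limma, adjusted p = 0.0283). In VHL-null cells the PGK1 intensity was nearly level over the 3 times, and in VHL-restored cells both hypoxia arrays were above the untreated one for both genes. Against the 0 h arrays of replicate 1, which lie on the lower intensity scale, LDHA was at -0.15 on the log2 scale. The calls of LDHA and PGK1 ended without any 1 of the 3 VHL-restored arrays.

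Chaperones and quality control proteins of the endoplasmic reticulum (ER) rose in the fit over both genotypes. Of 13 tested members 11 rose and none fell, against 9.88% of all tested genes called higher, and the median change was 0.82 on the log2 scale. By array the median was 0.47 and 0.64 at 1 h and 4 h in VHL-null cells and 0.86 and 0.97 in VHL-restored cells. HERPUD1, which acts in degradation of misfolded ER proteins, had intensities of 661, 1106 and 1275 in VHL-null cells and of 666, 1417 and 1521 in VHL-restored cells (log2 rise 1.17 ± 0.07, limma, adjusted p = 0.00364). HSPA5, the ER chaperone BiP, had 849, 1200 and 1470 in VHL-null cells and 865, 1483 and 1562 in VHL-restored cells (log2 rise 0.91 ± 0.08, limma, adjusted p = 0.00784). XBP1, a transcription factor of the unfolded protein response, had 606, 738 and 948 and 593, 998 and 1091 in the same order (log2 rise 0.82 ± 0.10, limma, adjusted p = 0.0149). For these 3 genes, named by their moderated t on these arrays, the untreated arrays of both genotypes were close to each other and below every hypoxia array. The share of all tested genes without such overlap was not counted. SDF2L1, an ER protein of chaperone complexes, had 218, 274 and 543 in VHL-null cells and 175, 390 and 518 in VHL-restored cells (log2 rise 1.23 ± 0.26, limma, adjusted p = 0.0371). The number that rose was 9 with quantile normalization and 7 without centring. It was 6 and 1 without the VHL-null and VHL-restored 0 h arrays and 2 without either VHL-restored hypoxia array. HSPA5 lost its call without the VHL-restored 0 h array, XBP1 lost it without that array or either VHL-restored hypoxia array, and the log2 changes were then 0.90 and 0.72 to 0.83.

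Genes of the ATF4 response, which supply amino acids and curb growth signals under stress, also rose. Of 18 tested members 10 rose and none fell, against 9.88% of all tested genes called higher, with a median of 0.56 on the log2 scale and array medians of 0.42 and 0.44 in VHL-null cells and 0.55 and 0.54 in VHL-restored cells. ASNS, asparagine synthetase, had intensities of 802, 972 and 1137 in VHL-null cells and of 510, 849 and 969 in VHL-restored cells (log2 rise 0.79 ± 0.10, limma, adjusted p = 0.0146). SESN2, a stress-induced inhibitor of mTORC1 signalling that is also on the p53 list, had 512, 700 and 710 and 454, 870 and 804 (log2 rise 0.85 ± 0.08, limma, adjusted p = 0.0089). NUPR1, a small stress-induced nuclear protein, had 826, 1062 and 1240 and 770, 1069 and 1068 (log2 rise 0.66 ± 0.07, limma, adjusted p = 0.0129). ATF4 itself had 1098, 790 and 747 in VHL-null cells and 787, 860 and 831 in VHL-restored cells, a log2 change of -0.01 ± 0.11 (limma, adjusted p = 0.963). The VHL-null and VHL-restored arrays thus went opposite ways for the ATF4 transcript. Of the 18, 8 rose with quantile normalization and 8 without centring. The number was 3 without the VHL-restored 0 h array, 1 without the VHL-restored 1 h array and 0 without the VHL-restored 4 h array.

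Targets of p53, which halts the cell cycle and promotes repair or death in damaged cells, rose in the fit over both genotypes. Of 15 tested members 11 rose and none fell, against 9.88% of all tested genes called higher. The median was 0.85 on the log2 scale, and by array 0.83 and 0.84 in VHL-null cells and 0.54 and 0.77 in VHL-restored cells. The number that rose was 10 with quantile normalization, 10 without centring and 11 with arrays centred on the genes listed on all 30 arrays. It was 7 and 6 without the VHL-null and VHL-restored 0 h arrays, and 7 and 3 without the VHL-restored 1 h and 4 h arrays. DDB2, which recognises damaged DNA for nucleotide excision repair, had intensities of 317, 669 and 852 in VHL-null cells and of 146, 366 and 464 in VHL-restored cells (log2 rise 1.50 ± 0.12, limma, adjusted p = 0.006). GDF15 had 518, 1659 and 1704 in VHL-null cells and 955, 1834 and 1979 in VHL-restored cells (log2 rise 1.52 ± 0.17, limma, adjusted p = 0.0129), a call that ended without the VHL-restored 4 h array. The VHL-null arrays were higher throughout for DDB2 and lower throughout for GDF15. BBC3, the pro-apoptotic protein PUMA, had 716, 1172 and 1177 and 680, 1044 and 1098 (log2 rise 0.87 ± 0.07, limma, adjusted p = 0.006). MDM2, the ubiquitin ligase that restrains p53, had 425, 629 and 654 and 389, 539 and 631 (log2 rise 0.76 ± 0.08, limma, adjusted p = 0.0122). The genotype difference of CDKN1A was 0.35 ± 0.17 and that of DDB2 was -0.06 ± 0.26 on the log2 scale, and neither passed (limma, adjusted p = 0.557 and 0.958).

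Genes of NF-kB and inflammation rose as well. Of 14 tested members 8 rose and none fell, against 9.88% of all tested genes called higher, with a median of 0.50 on the log2 scale and array medians of 0.83 and 0.61 in VHL-null cells and 0.36 and 0.40 in VHL-restored cells. ICAM1, a leukocyte adhesion molecule, had intensities of 348, 578 and 728 in VHL-null cells and of 369, 827 and 819 in VHL-restored cells (log2 rise 1.19 ± 0.09, limma, adjusted p = 0.00551). CXCL8, the neutrophil chemokine interleukin-8, had 696, 1583 and 1323 and 631, 1098 and 1219 (log2 rise 1.14 ± 0.12, limma, adjusted p = 0.0113), and its call ended without the VHL-restored 4 h array. IER3, an early response gene that is also on the immediate early list, had 1680, 2285 and 2201 and 1150, 1649 and 1719 (log2 rise 0.67 ± 0.06, limma, adjusted p = 0.00759). CXCL2, a related chemokine, was at 439, 764 and 451 in VHL-null cells and at 421, 369 and 376 in VHL-restored cells, high only on the VHL-null 1 h array, and did not pass (log2 change 0.31 ± 0.24, limma, adjusted p = 0.386). The number that rose was 7 with quantile normalization and 6 without centring. It was 4 without the VHL-null 0 h array and 4 and 3 without the VHL-restored 1 h and 4 h arrays.

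Of 27 tested immediate early genes, which answer growth factors and stress within minutes, 11 rose and none fell, against 9.88% of all tested genes called higher, and the median change was 0.23 on the log2 scale. With quantile normalization 5 of the 27 rose, and without centring 6. The number was 5 and 3 without the VHL-null and VHL-restored 0 h arrays and 3 and 2 without the VHL-restored 1 h and 4 h arrays. JUN, a subunit of the AP-1 transcription factor, had intensities of 1106, 1478 and 1446 in VHL-null cells and of 984, 1312 and 1410 in VHL-restored cells (log2 rise 0.62 ± 0.06, limma, adjusted p = 0.0108), and the related JUNB had 864, 1556 and 1474 and 851, 1254 and 1206 (log2 rise 0.85 ± 0.10, limma, adjusted p = 0.0132). The call of JUN ended without the VHL-restored 0 h or 4 h array, and that of JUNB without either VHL-restored hypoxia array. FOSB, another AP-1 subunit, was at 285 to 344 on all 6 arrays and did not pass (log2 change 0.04 ± 0.06, limma, adjusted p = 0.691). CCN2, a matricellular protein, was at 502, 246 and 107 in VHL-null cells and at 931, 627 and 586 in VHL-restored cells, lower on all 4 hypoxia arrays without passing (log2 change -0.87 ± 0.32, limma, adjusted p = 0.112). Of 9 tested dual-specificity phosphatases and other ERK feedback genes 5 rose, led by DUSP14 at 0.85 ± 0.10 on the log2 scale (limma, adjusted p = 0.0129). That count was 1 with quantile normalization or without centring, 3 without the VHL-null 0 h array, 0 without the VHL-restored 0 h array, and 1 and 0 without the VHL-restored 1 h and 4 h arrays.

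**Figure D3:**
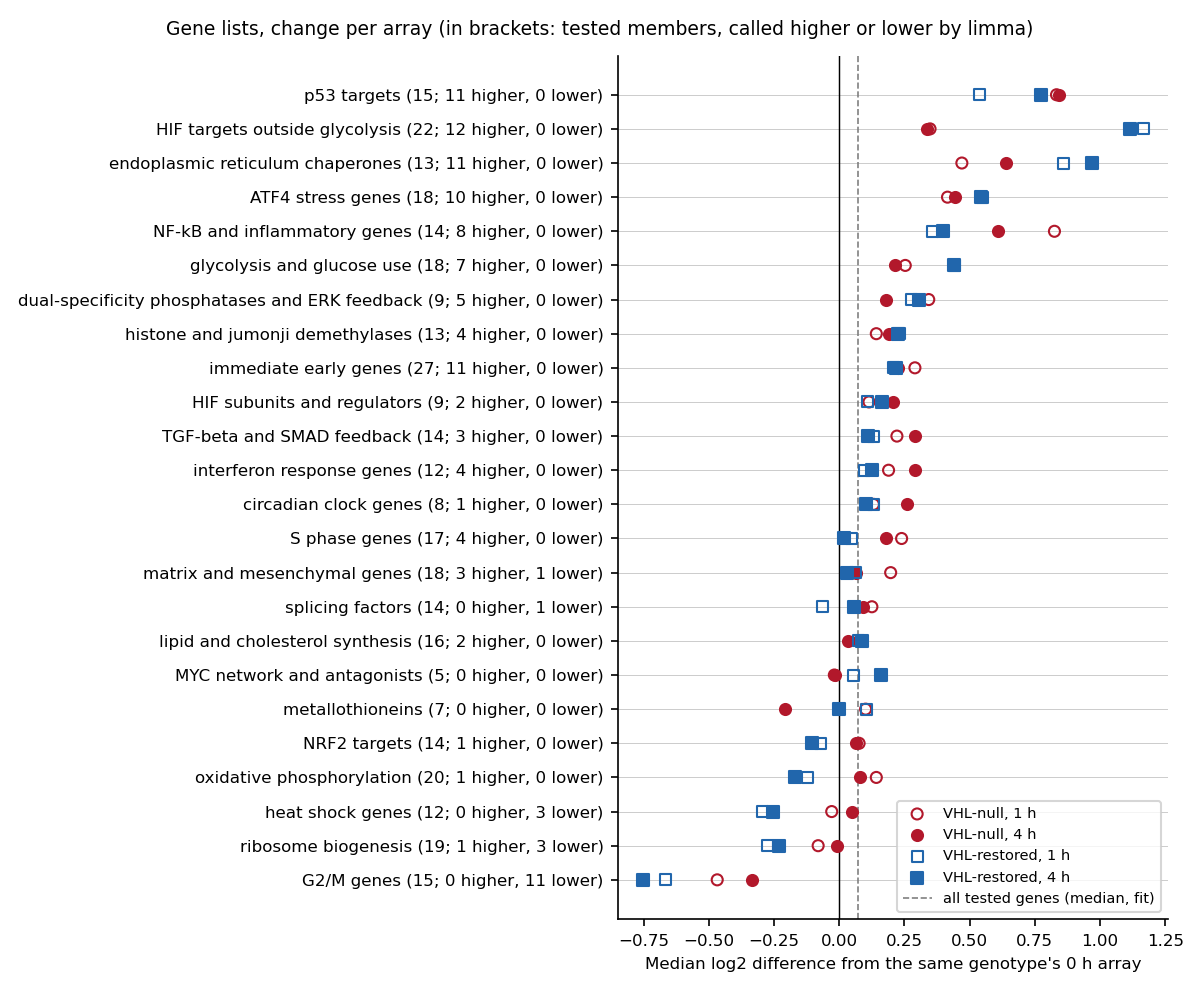
Median log2 difference of each gene list from the same genotype's 0 h array (x axis) on the 4 hypoxia arrays; open symbols are 1 h, filled symbols 4 h, circles VHL-null and squares VHL-restored. HIF targets lie at 0.34 to 0.35 in VHL-null and 1.12 to 1.17 in VHL-restored cells, while G2/M genes lie below 0 on all 4 arrays. The median of all tested genes was 0.07 and went to -0.12 without centring, so lists near 0 have no settled direction.

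Most tested genes that act in the G2 phase and mitosis fell. Of 15 tested members 11 fell and none rose, against 2.82% of all tested genes called lower, and the median change was -0.50 on the log2 scale. By array the median was -0.47 and -0.34 in VHL-null cells and -0.67 and -0.75 in VHL-restored cells. PLK1, a kinase that drives mitotic entry, had intensities of 322, 27 and 51 in VHL-null cells and of 319, 98 and 76 in VHL-restored cells (log2 change -1.99 ± 0.24, limma, adjusted p = 0.0132). CCNB1, the mitotic cyclin B1, had 849, 317 and 397 and 618, 228 and 197 (log2 change -1.16 ± 0.12, limma, adjusted p = 0.0129). KIF20A, a kinesin of cytokinesis, had 1039, 486 and 470 and 731, 292 and 192 (log2 change -1.13 ± 0.19, limma, adjusted p = 0.0256). For these 3 genes, named for the size of their fall, every hypoxia array lay below both untreated arrays, and the share of all tested genes without such overlap was not counted. KPNA2, a nuclear import receptor, had 742, 303 and 355 and 819, 260 and 299 (log2 change -1.13 ± 0.13, limma, adjusted p = 0.0129), and TOP2A, the mitotic topoisomerase, had 538, 282 and 271 and 514, 274 and 257 (log2 change -0.72 ± 0.06, limma, adjusted p = 0.00784). The mitotic kinase AURKB had a log2 change of 0.03 ± 0.05 (limma, adjusted p = 0.669), with intensities of 967, 796 and 850 and of 769, 738 and 705. The fall of the list held in each scaling, with 14 members called with quantile normalization and 14 without centring. It was 1 without the VHL-restored 0 h array and 4 and 2 without the VHL-restored 1 h and 4 h arrays. The calls ended without the VHL-restored 4 h array for PLK1, without the VHL-restored 0 h or 4 h array for CCNB1 and KPNA2, without the VHL-restored 0 h or 1 h array for KIF20A, and without the VHL-restored 0 h array for TOP2A.

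Of 17 tested S phase genes, which serve nucleotide supply and DNA replication, none was called lower, against 2.82% of all tested genes. Called higher were 4, against 9.88% of all tested genes: TYMS, LIG1, MCM5 and TK1, by 0.24 to 0.32 on the log2 scale. None was called higher with quantile normalization or without centring, and 2 members were lower without centring. None was called higher with any of the 6 arrays left out. No test set the S phase genes against the G2/M genes.

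Of the 215 genes that fell, 11 were on the G2/M list, and the 10 largest falls held 6 further genes, described here. HSPE1, the co-chaperonin of mitochondria, had intensities of 668, 344 and 317 in VHL-null cells and of 711, 232 and 191 in VHL-restored cells (log2 change -1.14 ± 0.19, limma, adjusted p = 0.025). CLDN2, a pore-forming claudin of tight junctions, had 374, 169 and 125 and 688, 219 and 152 (log2 change -1.35 ± 0.22, limma, adjusted p = 0.0232). VMP1, an ER membrane protein needed for autophagy, had 342, 167 and 101 and 382, 160 and 100 (log2 change -1.19 ± 0.24, limma, adjusted p = 0.0339). VMP1 was nearly alike in both genotypes at each time. PIMREG, a mitotic regulator, had 292, 106 and 106 and 211, 119 and 76 (log2 change -0.99 ± 0.15, limma, adjusted p = 0.0208), and CDC123, an assembly factor of translation initiation factor eIF2, had 350, 186 and 199 and 331, 124 and 102 (log2 change -0.93 ± 0.17, limma, adjusted p = 0.0286). TMEM19, a membrane protein, had 461, 260 and 222 and 431, 167 and 130 (log2 change -0.98 ± 0.18, limma, adjusted p = 0.0283). HSPE1, CLDN2, CDC123 and TMEM19 lost their call without the VHL-restored 0 h, 1 h or 4 h array, TMEM19 also without the VHL-null 4 h array. PIMREG lost it without either 0 h array or the VHL-restored 4 h array, and VMP1 without any array other than the VHL-null 1 h array. Without the VHL-restored 0 h array the log2 change was -0.72 for HSPE1, -0.64 for TMEM19 and -0.55 for CDC123. In the alternative runs other than leaving out an array, the weakest change was -0.46 for HSPE1, -0.27 for TMEM19 and -0.22 for CDC123. These genes were called in 12 of 16, 12 of 15 and 11 of 15 of those runs.

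Of 12 tested heat shock genes 3 fell, HSPE1 and the cochaperones DNAJA1 and DNAJB1, with a median of -0.16 on the log2 scale, against 2.82% of all tested genes called lower. The number was 8 without centring, 1 without the VHL-null 4 h array, and 0 without the VHL-restored 0 h array or either VHL-restored hypoxia array. HSPA5, the ER member of the HSP70 family, is not on that list and rose. Of 19 tested genes of ribosome biogenesis 3 fell, NIP7, NOP16 and WDR12, by 0.63, 0.60 and 0.56 on the log2 scale, 1 rose (PES1, by 0.28), and the median was -0.16. Without centring 13 of these 19 fell, with quantile normalization 7, and none changed without the VHL-restored 0 h array or either VHL-restored hypoxia array. Without the VHL-restored 0 h array the log2 change was -0.31 for WDR12 and -0.26 for DNAJA1, and against the 0 h arrays of replicate 1 the direction turned for WDR12 (0.02) and PES1 (-0.13).

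The remaining lists held few calls, to be read against 9.88% of all tested genes called higher and 2.82% called lower. The shares for the lipid, clock and NRF2 lists lay near that background. SMAD7, the inhibitory SMAD of TGF-beta signalling, had intensities of 475, 700 and 650 in VHL-null cells and of 475, 713 and 698 in VHL-restored cells (log2 rise 0.72 ± 0.06, limma, adjusted p = 0.00784), and was 1 of 3 members that rose among 14 tested genes of TGF-beta feedback. Untreated arrays were equal for SMAD7 and the hypoxia arrays of both genotypes were alike. Of 12 tested interferon response genes 4 rose, led by IRF1 at 0.98 ± 0.17 and HLA-B at 0.53 ± 0.06 on the log2 scale (limma, adjusted p = 0.0271 and 0.0132). Of 13 tested histone and jumonji demethylases, of which KDM4B and JMJD6 are also on the HIF target list, 4 rose, by 0.24 to 0.37. Of 18 tested matrix and mesenchymal genes 3 rose, among them the collagen cross-linking enzyme LOXL2 (0.61 ± 0.08, limma, adjusted p = 0.0149), and THBS1 fell by 0.42. Of 20 tested genes of oxidative phosphorylation 1 rose (COXFA4L2, by 0.33), and the median was -0.04. Of 16 lipid and cholesterol genes 2 rose, of 8 clock genes 1, of 14 NRF2 targets 1 (SLC7A11, which is also on the ATF4 list), of 14 splicing factors 1 fell, and of 7 metallothioneins and 5 genes of the MYC network none changed. With either VHL-restored hypoxia array left out, no member of these lists was called other than in the TGF-beta list, where SMAD7 kept its call in both cases. IRF1 lost its call also without the VHL-null 0 h array, where its log2 change was 0.63, HLA-B and LOXL2 also without the VHL-restored 0 h array, and THBS1 and COXFA4L2 with any 1 of the 6 arrays left out. Without the VHL-restored 0 h array the log2 change of SLC7A11 was 0.39. Against the 0 h arrays of replicate 1 the direction turned for THBS1 (0.32), COXFA4L2 (-0.47), TAP1 (-0.16), MVD (-0.20), MVK (-0.27), KDM4B (-0.10), JMJD6 (-0.08), KDM6B (-0.38), VIM (-0.03) and TRA2B (0.21). Without centring the demethylases had none higher and 1 lower, and oxidative phosphorylation none higher and 7 lower.

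The 1 h and the 4 h arrays were also set against 0 h each on their own, in comparisons that share the untreated arrays. At 1 h 27 genes passed, 0.355% of those tested, with 25 higher (0.328%) and 2 lower (0.0263%). At 4 h 465 genes passed, 6.11%, with 355 higher (4.66%) and 110 lower (1.44%). ATF3 had changes of 2.24 at 1 h and 2.49 at 4 h, DDB2 of 1.34 and 1.66, TNFAIP3 of 1.94 and 1.99 and HERPUD1 of 1.10 and 1.23 on the log2 scale, and all passed at both times (limma, adjusted p at most 0.0152). The 2 genes lower at 1 h were TOP2A and C16orf89, by -0.68 and -0.78. Of the p53 targets 4 rose at 1 h and 9 at 4 h, of the ER chaperones 2 and 11, of the NF-kB genes 3 and 6, of the ATF4 genes 1 and 7 and of the HIF targets 0 and 3. A gene that passed at 4 h and not at 1 h is not thereby shown to differ between the times. At 1 h the count was 241 without the VHL-null 0 h array and 11 to 16 without any 1 of the other 5 arrays, and at 4 h it was 97 without the VHL-restored 0 h array, 7 without the VHL-null 4 h array and 6 without the VHL-restored 4 h array.

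When 4 h was tested against 1 h itself, no gene passed limma (smallest adjusted p = 0.969), and 368 of 7614 had an unadjusted p under 0.05. The Pearson correlation between the 1 h and 4 h arrays across genes was 0.983 in VHL-null cells and 0.991 in VHL-restored cells. SDF2L1 had changes of 0.90 at 1 h and 1.55 at 4 h, and VMP1 of -0.87 and -1.51 on the log2 scale. Among the genes with the largest moderated t for this difference were CPEB4, a regulator of mRNA polyadenylation, with intensities of 206 and 318 at 1 h and 4 h in VHL-null cells and of 168 and 232 in VHL-restored cells, and WFS1, an ER membrane protein, with 171 and 276 and with 211 and 282. Lower at 4 h than at 1 h were BHMT, betaine-homocysteine methyltransferase, with 106 and 65 and with 133 and 92, and LYRM7, an assembly factor of respiratory complex III, with 134 and 73 and with 80 and 53. Their differences were 0.49, 0.50, -0.55 and -0.64 on the log2 scale and none passed (limma, adjusted p = 0.969 for each).

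RCC4 arrays at 2 h and 6 h, with the 0 h arrays of replicate 1, share no sample with the 6 arrays and gave the same comparison on a lower intensity scale. No gene passed limma there (smallest adjusted p = 0.109, with 587 at an unadjusted p under 0.05). Leaving out 1 of those 6 arrays gave 0 to 22 called genes, with 22 without the VHL-null 0 h array of replicate 1. Of the 752 genes higher at 1 h and 4 h, 58.1% had a positive change at 2 h and 6 h, against 52.6% of all tested genes, and of the 215 lower genes 65.6% had a negative change, against 47.4%. The difference between the sets of changes was tested over the 12 arrays, and 284 genes passed, 3.73% of those tested. It passed for 27.9% of the 752 higher genes and for 20.9% of the 215 lower genes, which were chosen on 6 of the same arrays. Time and array set cannot be told apart in this test. The count was 162 without the VHL-restored 0 h array of replicate 2, 487 without the VHL-null 1 h array, and 161 and 129 without the VHL-restored 1 h and 4 h arrays. It was 32 and 74 without the VHL-null and VHL-restored 0 h arrays of replicate 1, and 118, 108 and 155 without the VHL-null 2 h, the VHL-restored 2 h and the VHL-restored 6 h array.

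The leading stress genes at 1 h and 4 h did not pass at 2 h and 6 h, and their difference did. ATF3 was at 64, 94 and 83 at 0, 2 and 6 h in VHL-null cells and at 66, 85 and 65 in VHL-restored cells, a log2 change of 0.27 that differed from that at 1 h and 4 h by 2.09 ± 0.17 (limma, adjusted p = 0.000396). CDKN1A was at 168, 139 and 171 and at 117, 85 and 87, a change of -0.24 and a difference of 2.13 ± 0.15 (limma, adjusted p = 0.000185). DDB2 was at 142, 118 and 163 and at 75, 71 and 77, a change of -0.02 and a difference of 1.52 ± 0.17 (limma, adjusted p = 0.00319). In all 3 genes every array at 1 h and 4 h was above every array at 2 h and 6 h. The sets differ in intensity scale, however, and this separation was in part present at 0 h. Both 0 h arrays of replicate 2 were also above every array at 2 h and 6 h for ATF3 (292 and 190) and CDKN1A (256 and 212). For DDB2 (317 and 146) only the VHL-null one was. Of the 15 tested p53 targets 10 passed the test of the difference, all higher at 1 h and 4 h, against 3.02% of all tested genes, and the median change at 2 h and 6 h was -0.03. Of the 18 ATF4 genes 7 passed, of the 27 immediate early genes 5 higher and 1 lower (against 0.709% of all tested genes called lower), of the 14 NF-kB genes 4, of the 13 ER chaperones 2 and of the 22 HIF targets 1. The HIF targets had a median change of 0.26 at 2 h and 6 h. ENO2 in VHL-restored cells was at 205, 281 and 611 at 0, 2 and 6 h and at 909 at 18 h of replicate 1, and NDRG1 at 290, 422, 755 and 1325, a stepwise order that the arrays at 1 h and 4 h did not have, where ENO2 was at 1293 and 1309 and NDRG1 at 1781 and 1854. On the 18 h arrays of replicate 2 ENO2 was at 1112 and 1200 in VHL-null and VHL-restored cells, ATF3 at 891 and 548 and CDKN1A at 729 and 316. PLK1 was at 218, 176 and 189 at 0, 2 and 6 h in VHL-null cells and at 283, 180 and 152 in VHL-restored cells, a change of -0.47 that differed from that at 1 h and 4 h by -1.52 ± 0.28 (limma, adjusted p = 0.0199).

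**Figure D4:**
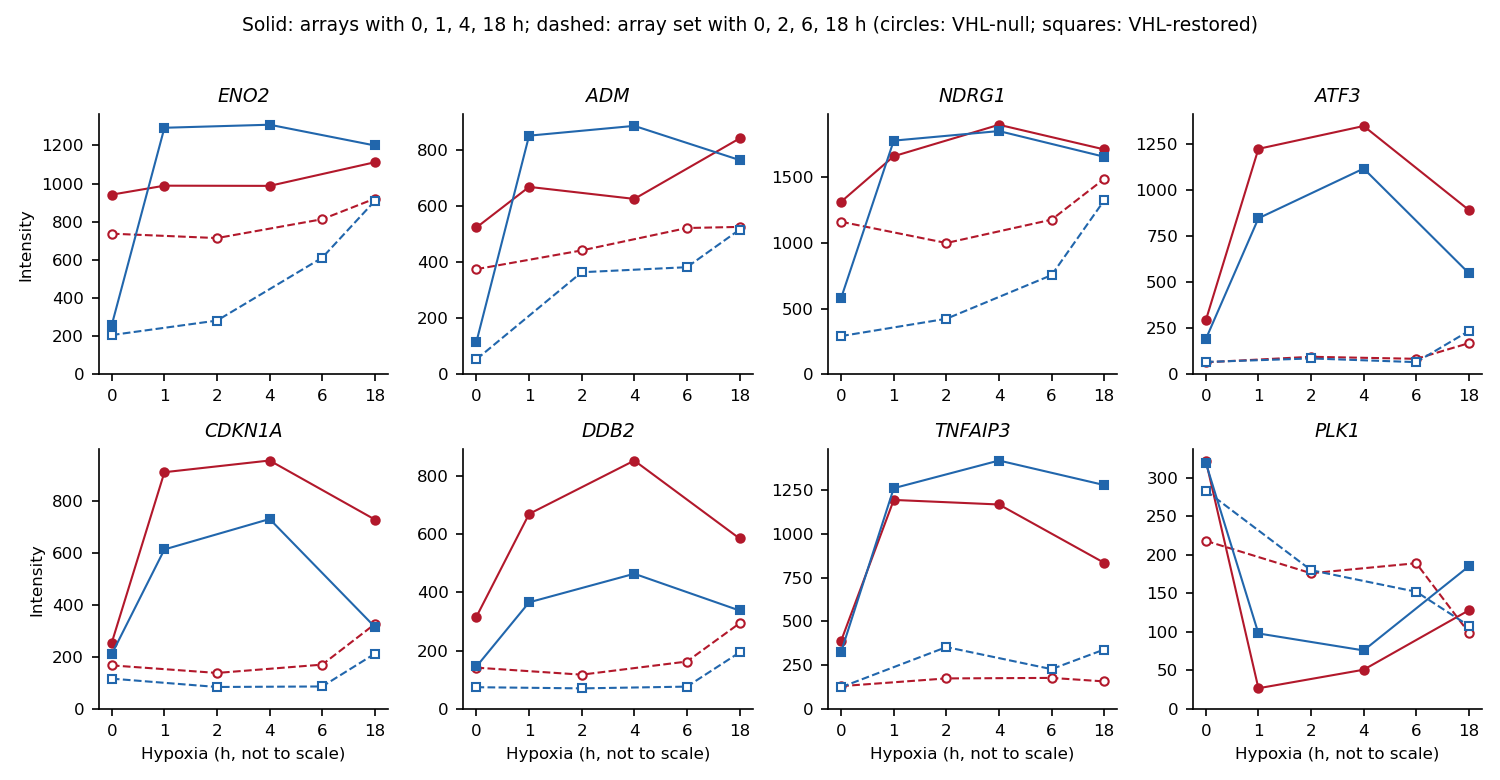
Intensity (linear) of 8 genes against hours of hypoxia (positions not to scale), 1 array per point; solid lines join the arrays at 0, 1, 4 and 18 h, dashed lines those at 0, 2, 6 and 18 h, circles VHL-null and squares VHL-restored. ATF3, CDKN1A and DDB2 are high at 1 h and 4 h and low at 2 h and 6 h, and ENO2 in VHL-restored cells is at 1293 at 1 h and at 281 at 2 h. The sets differ in intensity scale, and ATF3, CDKN1A and DDB2 are already higher on the solid lines at 0 h in each genotype.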

How the data were processed

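RNA of RCC4 cells was measured on a custom oligonucleotide array, 1 array per sample. The authors deposited 1 intensity per probe set and array in a value table, per the file headers; the probe set summary and the scaling are not given in the sources used here. Entries given as null were taken as 0. Of 35409 probe sets in the table, 52 of them controls, 17478 were annotated, 16905 with a single symbol and 573 with several, which were not named. They gave 12690 genes, each read from its brightest probe set. The 60% with the highest mean over all 30 arrays of the series, 7614 genes, were tested, and all were listed on all 6 arrays.

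Values were taken as log2(intensity + 16), so fold changes of dim genes are understated, and each array was centred on its median gene. limma 3.58.1 (R 4.3.3) was fitted over the 6 arrays with VHL genotype as a block, leaving 3 residual degrees of freedom for 1 h and 4 h together and 2 for single times and for the genotype interaction, with Benjamini-Hochberg adjustment over all tested genes and a threshold of 0.05. The number of arrays limits the precision, and nothing states that the arrays came from separate cultures, so a p-value reflects only how these samples vary, which may be technical. Errors are standard errors. On simulated data of 7614 genes, the comparison of 1 h and 4 h with 0 h recovered 95 of 100 genes changed by 2-fold and 76 of 100 changed by 1.5-fold, with 12 false calls. The simulated spread was independent between genes, with no effect shared by the genes of an array. These counts therefore give no error rate for the measured arrays. The effect on these counts of the differences in null entries and median gene between the measured arrays was not tested.

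The members, the 24 pathway lists and the 7 cell type lists were chosen with earlier results of these data known; lists overlap. Genes were named by rule: the 10 largest called rises and falls among genes listed on all 6 arrays and moving one way on all 4 hypoxia arrays, up to 5 called genes each way for the other comparisons (or 3 by moderated t, given as not called), up to 4 members of each list by moderated t, and up to 4 genes each way that switched between null and listed. NDRG1, VEGFA, EGLN3, HIF1A, ATF4, MDM2, CXCL2, FOSB, CCN2 and AURKB were added after their values were seen. Alternatives were other pseudocounts, filters, scalings, probe set rules, treatment of nulls, variance priors, sample sets and controls, and leaving out each array. Promoters came from RefSeq, build GRCh38.p14, and 9 of the 10 largest rises were in that table.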

Additional observations from a re-analysis of the deposited data

Results flagged for a closer look

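The change in hypoxia differed between VHL-null and VHL-restored cells, by the interaction test in limma, for 4 genes. The difference, VHL-null minus VHL-restored on the log2 scale, was -2.31 for ADM, -2.13 for BNIP3, -2.06 for ENO2 and -2.44 for NRN1. None of the 4 passed without the VHL-restored 1 h array or without the VHL-restored 4 h array.

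The change at 1 h and 4 h differed from that at 2 h and 6 h, by the test of the difference in limma, for 12 of the 20 genes with the largest changes at 1 h and 4 h. These genes were chosen on 6 of the 12 arrays tested, and time and array set cannot be told apart. For those higher at 1 h and 4 h the difference on the log2 scale was 2.09 for ATF3, 1.22 for TNFAIP3, 2.13 for CDKN1A, 1.61 for GDF15, 1.52 for DDB2, 1.89 for TSC22D3 and 0.93 for EDN2. For those lower it was -1.52 for PLK1, -1.16 for VMP1, -1.14 for HSPE1, -0.94 for KPNA2 and -0.80 for PIMREG.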

How the results depend on the processing

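With 1 h and 4 h together, the 967 called genes became 394 with no filter on low values (134 higher, 260 lower), 498 with quantile normalization (264 and 234), 1486 with no centring (164 and 1322), 2614 with the mean of each gene's probe sets, 532 with centring on genes listed on all 30 arrays (227 and 305), 52 with no genotype block, 4532 against the 0 h arrays of replicate 1 (1367 and 3165) and 420 against both 0 h replicates. With null entries as missing it was 1382 (165 and 1217), and with the upper 40% of genes 1273 (1174 and 99). Higher genes were 77.8% of the calls, against 53% with quantile normalization, 11% with no centring, 11.9% with nulls as missing and 42.7% with centring on genes listed on all 30 arrays. Leaving out 1 array gave 29 to 796. For 1 h alone the 27 calls became 82 with a pseudocount of 64, 50 with no filter, 200 with the upper 40% of genes, 579 with no centring, 788 with mean probe sets, 336 with nulls as missing, 167 with a trended robust prior, 7 with centring on genes listed on all 30 arrays, and 186 and 275 in fits over 12 and 20 RCC4 arrays, with 11 to 241 on leaving out an array. For 4 h the 465 calls became, in that order of settings, 104 with no filter, 161 with quantile normalization, 916, 892, 759, 732, 246, 721 and 810, with 6 to 493 on leaving out an array. No alternative run called a gene between 4 h and 1 h. The 4 genes of the genotype difference became 10 with a pseudocount of 64, 846 with no filter, 29 with the upper 40%, 7 with quantile normalization, 17 with no centring, 9 with nulls as missing and 44 with the trended prior, with 0 to 199 on leaving out a hypoxia array; without either 0 h array it could not be fitted. At 2 h and 6 h the count of 0 became 7, 20 and 31 with a pseudocount of 64, the upper 40% and the trended prior, with 0 to 22 on leaving out an array. The 284 of the difference between array sets became 184 with quantile normalization, 907 with mean probe sets, 164 with nulls as missing, 490 with the trended prior and 155 with centring on genes listed on all 30 arrays, with 32 to 487 on leaving out an array. The causes were not tested. Against the 0 h arrays of replicate 1, these genes turned direction (log2): PFKL -0.099, LDHA -0.15, ALDOA -0.20, OS9 -0.12, ARNT -0.20, DUSP8 -0.068, HSF1 -0.34, TAP1 -0.16, MLXIP -0.26, PES1 -0.13, WDR12 0.019, MVD -0.20, MVK -0.27, SC5D -0.26, COXFA4L2 -0.47, TRA2B 0.21, JMJD6 -0.079, KDM4B -0.097, KDM6B -0.38, PER1 -0.39, OSGIN1 -0.30, MT3 -0.43, VIM -0.029 and THBS1 0.32; against both replicates MVK -0.016, COXFA4L2 -0.068 and KDM6B -0.069 did. Centring on genes listed on all 30 arrays, and leaving out arrays at 2 h and 6 h and for the difference between sets, were chosen after seeing the data. No paired analysis was possible because the 0 h arrays are replicate 2 and the hypoxia arrays replicate 1, so that the groups share no replicate number. Genes below the filter were not tested, and 1 untreated array per genotype gives no spread within a genotype at 0 h.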

Other observations

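On intensities alone, 225 genes were listed on both 0 h arrays and null on all 4 hypoxia arrays. Those with the highest lowest value were SLITRK5, with 92 on the VHL-null and 90 on the VHL-restored 0 h array, ECHDC1 with 95 and 59, GUCY1B1 with 58 and 78, and MEX3A with 57 and 150. The reverse held for 6 genes, null on both 0 h arrays and listed on all 4 hypoxia arrays. PTGS1, cyclooxygenase 1, was at 15 and 50 at 1 h and 4 h in VHL-null cells and at 34 and 78 in VHL-restored cells, and GOLGA1, a golgin, was at 13 and 44 and at 66 and 80. FGD6 was at 4 and 28 and at 34 and 21, and N4BP2L1 at 4 and 36 and at 11 and 35. The hypoxia arrays held more null entries over all probe sets than the 0 h arrays, and the part of that in these switches was not tested.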
